A study of Mus musculus with 2 samples.

Results

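The genes described here are 10 antioxidant and electrophile-defence genes, most of them textbook targets of the transcription factor NRF2, out of 31053 genes in the count matrix. They were chosen by name, and all 10 were present and passed the filter on low counts in both comparisons below. The cells were corneal epithelial cells of mice with the genotype CycB1-GFP, in which green fluorescent protein reports Cyclin B1 and so marks cells that are cycling. This was the only group, with 2 labelled replicates, and the labels give no treatment, age or sex. The epithelium was peeled after Dispase, dissociated with trypsin and sorted for live GFP-positive cells before 10x Genomics 3′ single-cell sequencing, so only cells that passed the GFP gate were collected. The tests are therefore between kinds of cell within the same 2 libraries. The libraries were told apart by the barcode suffix and are numbered by that suffix, which nothing ties to the replicate numbers in the labels. Nothing in the labels says whether they came from separate animals or pools, so a p-value measures the spread between these sums of cells, which may be technical.

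NRF2, encoded by Nfe2l2, is held at low levels by KEAP1 until electrophiles or oxidants modify KEAP1. It then accumulates and, with a small MAF partner, binds the antioxidant response element in front of genes that make glutathione, reduce peroxides and clear reactive aldehydes and quinones. The corneal epithelium is exposed to light and oxygen, and is known for large amounts of aldehyde dehydrogenase and transketolase. Krt12 marks the differentiated corneal lineage, and Krt15 marks the basal cells of the limbus, the border zone that holds the stem cells, as well as neighbouring conjunctival cells.

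Of the 10 genes, 7 had a promoter sequence in the RefSeq table (build GRCm38.p6), in 9 windows that run from 250 bases before to 50 bases after a start. Both strands were searched for the response element core in the forms TGACNNNGC and TGAGNNNGC. The first form occurs in 12.4% and the second in 17.6% of all 32851 promoter windows of this length, and either form in 27.8%. Matches were found in 3 of the 9 windows, those of Srxn1, Gclm and 1 of 3 starts of Txnrd1. The 250 bases before the start are shown for the members with a match in all their windows (Srxn1, matches beginning 158 and 45 bases before the start, and Gclm, 134 bases before it) and for the pair with large and opposite differences below, Gpx2 and Nqo1, where these letters were not in the window. Capitals mark the matches. A further Srxn1 match, of the first form, begins at base 29 after the start and so lies outside the bases shown.
Srxn1, chr2:152105274-152105523, plus strand: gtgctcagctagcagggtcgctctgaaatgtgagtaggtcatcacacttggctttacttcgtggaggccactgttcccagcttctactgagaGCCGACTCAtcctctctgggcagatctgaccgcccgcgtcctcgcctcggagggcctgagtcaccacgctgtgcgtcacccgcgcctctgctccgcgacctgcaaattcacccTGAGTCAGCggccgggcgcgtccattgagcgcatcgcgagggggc
Gclm, chr3:122245307-122245556, plus strand: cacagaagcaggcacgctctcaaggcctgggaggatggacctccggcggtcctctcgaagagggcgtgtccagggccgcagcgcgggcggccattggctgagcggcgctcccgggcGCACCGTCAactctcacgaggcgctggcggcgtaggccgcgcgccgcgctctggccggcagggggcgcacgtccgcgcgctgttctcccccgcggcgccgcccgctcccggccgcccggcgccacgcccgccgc
Gpx2, chr12:76795555-76795804, minus strand: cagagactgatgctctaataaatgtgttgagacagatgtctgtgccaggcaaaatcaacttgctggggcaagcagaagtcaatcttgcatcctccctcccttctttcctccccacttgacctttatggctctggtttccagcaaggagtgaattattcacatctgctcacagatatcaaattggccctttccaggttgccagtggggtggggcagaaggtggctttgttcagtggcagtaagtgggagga
Nqo1, chr8:107403206-107403455, minus strand: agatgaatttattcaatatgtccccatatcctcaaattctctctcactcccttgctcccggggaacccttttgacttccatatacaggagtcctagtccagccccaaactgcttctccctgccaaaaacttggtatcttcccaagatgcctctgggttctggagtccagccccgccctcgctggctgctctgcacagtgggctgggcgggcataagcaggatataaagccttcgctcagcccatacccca
A match describes these letters and not a bound site, and bases outside the windows were not searched. Gclc, Gsta4 and Hmox1 were named only.

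Cells with 500 or more genes and under 20% mitochondrial UMIs (unique molecular identifiers, each counting 1 captured RNA molecule) were kept, 3187 of 3458 barcodes in library 1 and 3001 of 3294 in library 2, with medians of 5571 and 5886 UMIs. Only 4 barcode sequences occurred among the kept cells of both libraries. Cells with at least 5 UMIs of Krt12 and Krt15 together were binned by the share that was Krt12. Krt15-dominant cells (share under 0.4) numbered 663 and 959, mixed cells (0.4 to 0.8) 161 and 164, and Krt12-dominant cells (above 0.8) 2304 and 1821. The bins were then compared on marker lists. Krt12 and Krt15 set the bins, so the direction of a list that holds either was partly given. The 4 corneal markers, which include Krt12, summed to 1949 and 1598 CPM (UMIs per 1000000 UMIs) in Krt15-dominant cells and to 22608 and 30067 CPM in Krt12-dominant cells. The 5 limbal basal markers, which include Krt15, went the other way, from 17116 and 19976 CPM down to 7737 and 4222 CPM. Krt12 alone was at 14423 and 18489 CPM in Krt12-dominant cells, and Krt15 alone at 6842 and 9948 CPM in Krt15-dominant cells. The 5 conjunctival markers summed to 1061 and 1919 CPM in Krt15-dominant cells against 131 and 125 CPM in Krt12-dominant cells, so the Krt15-dominant bin carried both limbal and conjunctival markers. Immune markers reached 38.5 CPM at most, and the keratocyte, endothelial and melanocyte markers were below 9 CPM in every bin. The 3 cycling markers lay between 1807 and 2174 CPM in all 6 sums. No cells were removed as doublets.

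From the limbal and conjunctival side to the corneal side, the 10 genes did not move together. Between Krt15-dominant and Krt12-dominant cells, 4 rose (Gpx1, Gclc, Nqo1 and Akr1b8), 3 fell (Gpx2, Txnrd1 and Gclm) and 3 did not pass the test (Srxn1, Gsta4 and Hmox1), by edgeR's quasi-likelihood test on sums of UMIs per library and bin with library as a block. Among all 11140 genes tested, 15.6% were called higher and 16.9% lower in Krt12-dominant cells, 32.5% in all. The median log2 fold change was -0.02 over the 10 genes and 0.01 over all genes. The fit had 6 sums and 2 residual degrees of freedom. Levels below are UMIs of the gene per 1000000 UMIs, and differences are log2 fold changes.

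**Figure D1:**
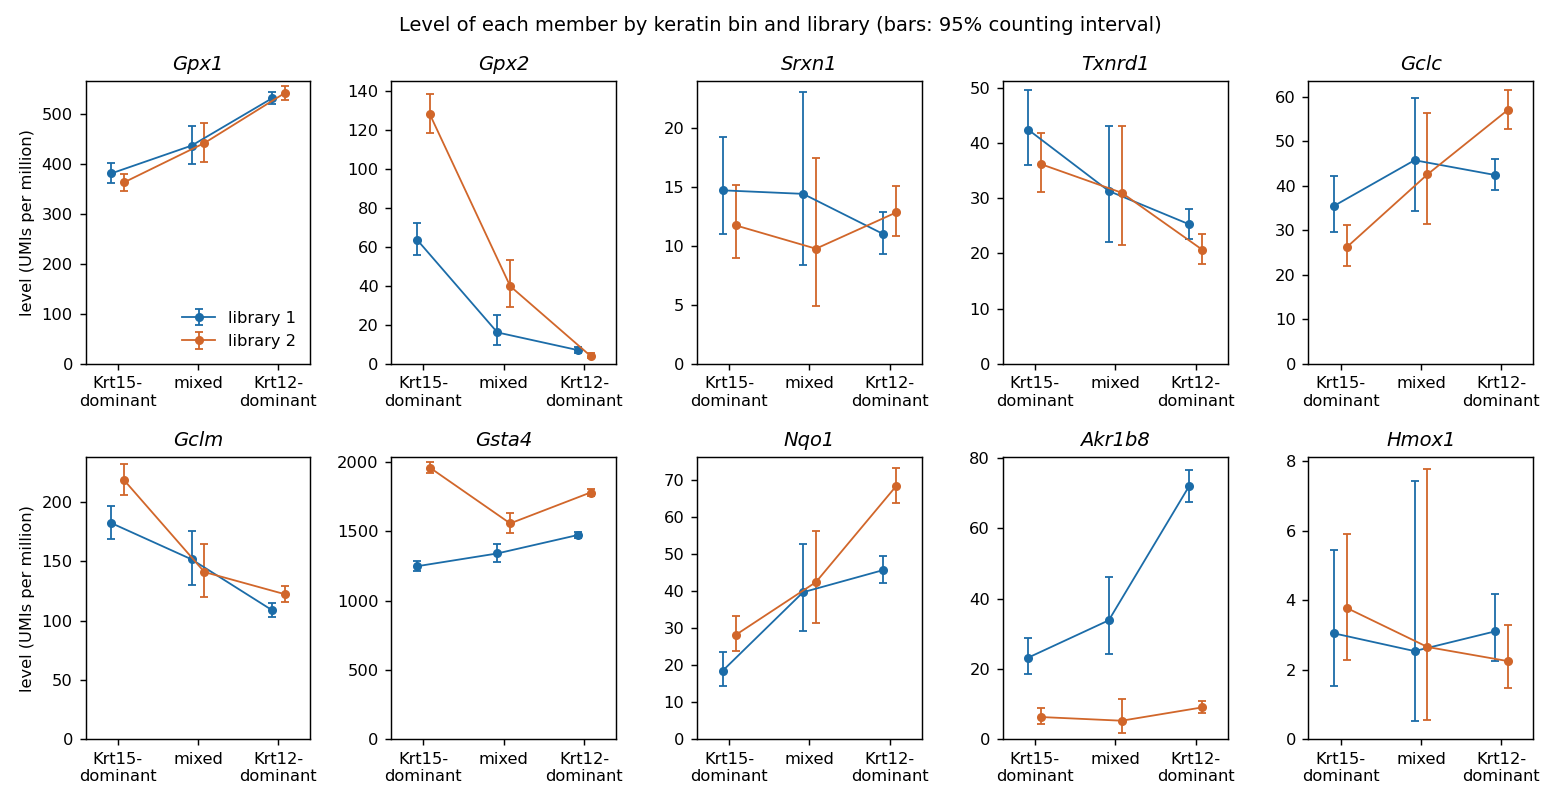
Level of each of the 10 genes (y axis, UMIs per 1000000) in Krt15-dominant, mixed and Krt12-dominant cells (x axis), with a point per library and bars for the 95% Poisson counting interval. Gpx2 falls and Nqo1 and Gpx1 climb across the bins in both libraries, while Akr1b8 is at 23.3 to 72.0 in library 1 and at 5.31 to 9.09 in library 2.

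Among the enzymes that reduce peroxides, the glutathione peroxidases Gpx1 and Gpx2 moved in opposite directions. Gpx1, the ubiquitous cytosolic form (chr9:108338903-108340343, plus strand, in GENCODE M21 on GRCm38), stood at 381, 437 and 531 CPM in Krt15-dominant, mixed and Krt12-dominant cells of library 1. Library 2 gave 363, 442 and 542 CPM. The levels of both libraries were close in each bin and did not overlap between the end bins. The rise was 1.47-fold (log2 fold change 0.55, SE 0.08, edgeR adjusted p = 1.28e-06). Gpx2 (chr12:76792333-76795554, minus strand) encodes the form best known from the epithelium of the gut. It stood at 63.7, 16.1 and 7.00 CPM in library 1, from 230, 19 and 97 UMIs. In library 2 it stood at 128, 39.9 and 3.98 CPM, from 645, 45 and 46 UMIs. Every step was downward in both libraries, and library 2 was above library 1 in the Krt15-dominant and mixed bins but below it in Krt12-dominant cells. The fall was 15.9-fold in the joint fit (log2 fold change -3.99, SE 0.61), and -3.08 and -4.86 in library 1 and library 2 alone. Its edgeR adjusted p of 0.04998 lay at the threshold, and the call held under 7 of 12 alternative fits, with adjusted p from 9.21e-09 to 0.152.

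The share of cells with a Gpx2 UMI differed in the same direction. After each cell was thinned to 2000 UMIs, 9.97% of Krt15-dominant cells of library 1 had a Gpx2 UMI (exact 95% interval 7.76 to 12.6), and 21.3% of those of library 2 (18.7 to 24.2). In Krt12-dominant cells the shares were 1.23% (0.795 to 1.80) and 0.740% (0.383 to 1.29). Without thinning the shares were 22.6% and 35.6% against 3.86% and 1.98%. These intervals cover counting error only. The 9 cells with at least 3 of 6 immune markers, a type in which epithelial Gpx2 is not expected, had no Gpx2 UMI at a median depth of 2512 UMIs, but 0 of 9 cells allows a share of up to 33.3%, so the part of free RNA in the low share of Krt12-dominant cells was not detectable at this depth.

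Srxn1 and Txnrd1 serve the thioredoxin branch, which keeps peroxiredoxins reduced. Sulfiredoxin, encoded by Srxn1 (chr2:152105516-152111376, plus strand), restores over-oxidised peroxiredoxins and is 1 of the genes most closely tied to NRF2. It was at 14.7, 14.4 and 10.98 CPM in library 1 and at 11.7, 9.74 and 12.8 CPM in library 2. The libraries differed in direction, and the difference between the end bins did not pass the test (log2 fold change -0.11, SE 0.21, edgeR adjusted p = 0.736). Txnrd1, the cytosolic thioredoxin reductase (chr10:82833951-82897712, plus strand), was at 42.4, 31.3 and 25.3 CPM in library 1 and at 36.2, 31.0 and 20.7 CPM in library 2. Its levels fell at every step in both libraries, with a fall of 1.68-fold between the end bins (log2 fold change -0.75, SE 0.14, edgeR adjusted p = 7.71e-05). On cells thinned to 2000 UMIs the Txnrd1 difference was -0.51 and missed the threshold (edgeR adjusted p = 0.0722).

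The subunits of glutamate-cysteine ligase, which makes the rate-limiting step of glutathione synthesis, diverged. The catalytic subunit Gclc (chr9:77754535-77794485, plus strand) was at 35.5, 45.7 and 42.4 CPM in library 1 and at 26.2, 42.5 and 57.0 CPM in library 2. Krt12-dominant cells were above Krt15-dominant cells in both libraries, by a log2 fold change of 0.31 in library 1 and 1.15 in library 2. The joint value was 0.73 (SE 0.16, edgeR adjusted p = 0.00263), and it missed the threshold in DESeq2 (adjusted p = 0.0534). The modifier subunit Gclm (chr3:122245557-122270732, plus strand), which raises the activity of the catalytic subunit, was at 182, 152 and 109 CPM in library 1. Library 2 gave 218, 141 and 122 CPM. Gclm fell at every step in both libraries, by 1.70-fold between the end bins (log2 fold change -0.77, SE 0.09, edgeR adjusted p = 9.50e-08). The share of cells with a Gclm UMI at 2000 UMIs was 30.8% and 35.3% in Krt15-dominant cells and 16.9% and 20.5% in Krt12-dominant cells (55.7% and 59.9% against 41.4% and 48.1% without thinning). None of the 9 immune cells had one.

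The last group holds the enzymes that clear aldehydes, quinones and haem. Nqo1, the quinone reductase that is the usual readout of NRF2 (chr8:107388225-107403206, minus strand), was at 18.6, 39.8 and 45.8 CPM in library 1. Library 2 gave 28.2, 42.5 and 68.5 CPM. Nqo1 rose 2.47-fold between the end bins (log2 fold change 1.30, SE 0.14, edgeR adjusted p = 8.70e-09), by 1.34 and 1.31 in the separate libraries. Akr1b8, an aldo-keto reductase that takes aldehydes (chr6:34354119-34368463, plus strand), was at 23.3, 33.9 and 72.0 CPM in library 1. In library 2 it was at 6.36, 5.31 and 9.09 CPM, from 32, 6 and 105 UMIs. The groups of 1 library did not overlap those of the other, and the rise between the end bins was 1.67 in library 1 and 0.53 in library 2. The joint rise was 2.50-fold (log2 fold change 1.32, SE 0.20, edgeR adjusted p = 5.04e-05), and it missed the threshold without the library block (edgeR adjusted p = 0.581). Akr1b8 belongs to a family of near copies, so reads that also match Akr1b3, Akr1b7 or Akr1b10 may have affected its count. Gsta4, a glutathione transferase that takes 4-hydroxynonenal from oxidised lipids (chr9:78182774-78209349, plus strand), was at 1247, 1339 and 1471 CPM in library 1. Library 2 gave 1957, 1555 and 1778 CPM. Gsta4 ran upward in library 1 and down and up in library 2, and its difference did not pass the test (log2 fold change 0.07, SE 0.10, edgeR adjusted p = 0.681). Hmox1, haem oxygenase 1 (chr8:75093621-75100589, plus strand), was at 2.25 to 3.78 CPM in all 6 sums, from 3 to 43 UMIs, and did not pass the test (log2 fold change -0.35, SE 0.40, edgeR adjusted p = 0.563).

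**Figure D2:**
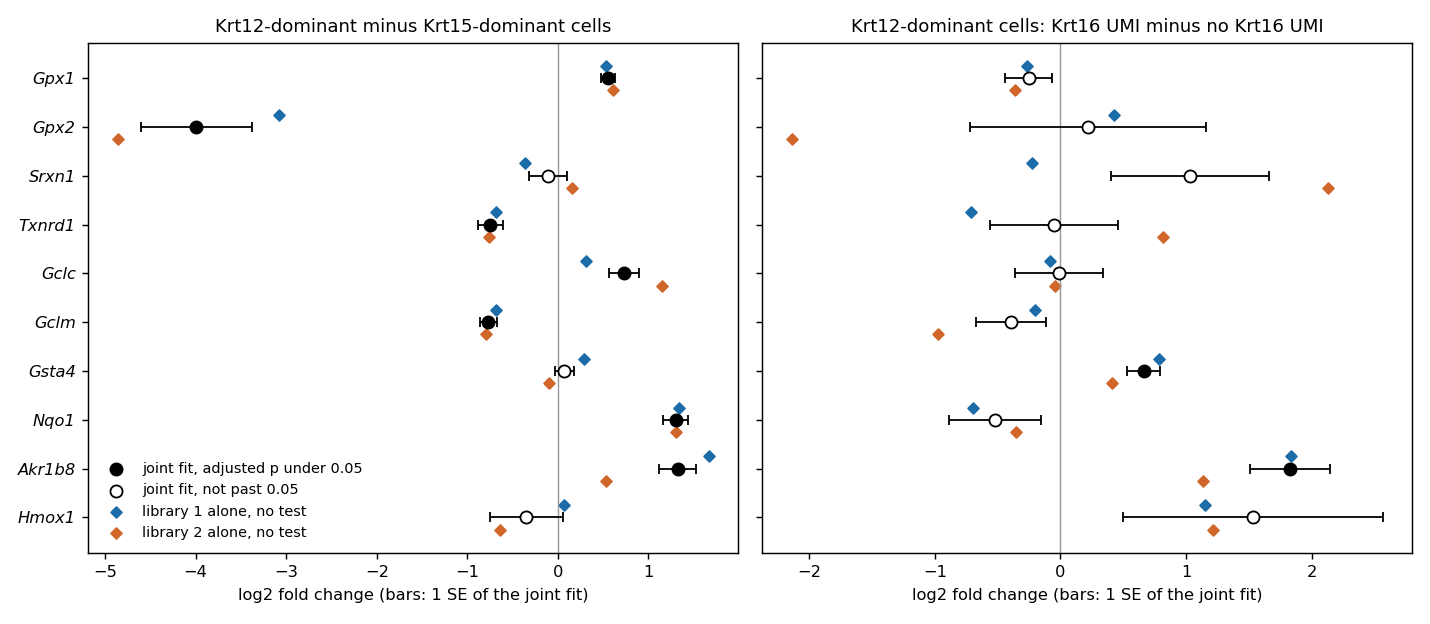
Log2 fold change of each gene (x axis) between Krt12-dominant and Krt15-dominant cells (left) and between Krt12-dominant cells with and without a Krt16 UMI (right). Circles are the joint edgeR fit with bars of 1 SE, filled where the adjusted p passed 0.05, and diamonds are each library alone with no test. On the left Nqo1 and Gpx1 have close values in the 2 libraries, and Gclc and Akr1b8 are further apart.

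The mixed cells split the change between the end bins into 2 steps. From Krt15-dominant to mixed cells, Nqo1 rose by 0.82 (edgeR adjusted p = 0.00817) and Gclm fell by 0.45 (edgeR adjusted p = 0.0106). In this step 2.95% of all genes were called higher and 2.62% lower, 5.57% in all. From mixed to Krt12-dominant cells, Gpx1 rose by 0.31 (edgeR adjusted p = 0.0140) and Akr1b8 by 1.02 (edgeR adjusted p = 0.0243), and none of the 10 was called lower. In that step 2.92% of all genes were called higher and 4.15% lower (7.06% in all), 2 of the 10 genes were lower at an unadjusted p under 0.05, and DESeq2 was not run on it. Genes called in 1 step moved the same way in the other without passing there. From mixed to Krt12-dominant cells, Nqo1 rose by 0.48 (edgeR adjusted p = 0.0882) and Gclm fell by 0.32 (edgeR adjusted p = 0.0764). From Krt15-dominant to mixed cells, Gpx1 rose by 0.24 (edgeR adjusted p = 0.0930) and Akr1b8 by 0.31 (edgeR adjusted p = 0.714). Mixed cells numbered under 170 in each library, which limits both steps, and whether the steps differ from each other was not tested. Doublets were kept, and their part in the mixed levels was not tested.

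Nfe2l2 itself was at 77.0 to 91.6 CPM and Keap1 at 84.8 to 111 CPM over the 6 sums, and 0 of 9 regulators tested (the list also holds Bach1, a repressor at the same element, and the small MAF genes) passed the edgeR threshold in either direction, beside 15.6% higher and 16.9% lower among all genes. At an unadjusted p under 0.05, 2 of the 9 were higher and 0 lower, and DESeq2 called 0. RNA levels of NRF2 and KEAP1 say little about the amount of NRF2 protein, which is set by degradation.

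Further genes of the pathway were held in 7 lists of 74 genes. Of the 72 tested, 14 rose, 18 fell and 40 did not pass the test, shares near the 15.6% and 16.9% of all genes. Of 17 glutathione enzymes, 2 rose and 7 fell, with a median log2 fold change of -0.29 (0.01 over all genes). The microsomal transferase Mgst1 fell by 2.80 (edgeR adjusted p = 7.30e-15), the peroxidase Gpx8 by 1.08 (edgeR adjusted p = 0.000149) and the transferase Gstm1 by 1.05 (edgeR adjusted p = 5.26e-09). Of 13 genes of the thioredoxin and peroxiredoxin system, 5 rose and 3 fell. The peroxiredoxin Prdx6, which reduces lipid peroxides, rose by 1.47 (edgeR adjusted p = 0.00414). Of 4 superoxide dismutase and catalase genes, 1 rose and 2 fell, among them catalase (Cat), by 1.52 (edgeR adjusted p = 4.78e-07). Of 6 genes that supply NADPH, 1 rose and 1 fell. The transketolase Tkt rose by 3.16 (edgeR adjusted p = 0.0268). Of 16 genes of quinone and carbonyl metabolism, 4 rose and 4 fell. The aldehyde dehydrogenases Aldh3a1, a corneal crystallin and 1 of the corneal markers, and Aldh1a1 rose by 3.77 (edgeR adjusted p = 0.0137) and 1.26 (edgeR adjusted p = 1.30e-09). Of 7 haem and iron genes, 1 rose and 1 fell. The 11 immediate early genes, which respond to dissociation, moved with the bins too, 7 rising and none falling in edgeR (none lower at an unadjusted p under 0.05 or in DESeq2), and summed to 4888 and 2153 CPM in Krt15-dominant cells against 8639 and 4121 CPM in Krt12-dominant cells. Their part in the differences of the 10 genes was not tested.

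Within the Krt15-dominant bin, Gsta4 separated the cells. The bin was split by UMIs of Gpha2, a limbal marker, and of Krt13 or Krt19, conjunctival keratins, at 2000 UMIs per cell. The split was chosen after the data were seen and is given without a test. Cells with Gpha2 and neither keratin numbered 287 and 438, and cells with a keratin and no Gpha2 127 and 163. Gsta4 was at 692 and 978 CPM in the Gpha2 cells of library 1 and library 2, and at 2389 and 3859 CPM in the keratin cells. The ratio was 3.45 (95% counting interval 3.20 to 3.73) in library 1 and 3.95 (3.74 to 4.16) in library 2. The Gpha2 cells lay below and the keratin cells above the Krt12-dominant level of 1471 and 1778 CPM in both libraries. Gclm ran the other way, at 245 and 259 CPM in Gpha2 cells and 108 and 152 CPM in keratin cells, with ratios of 0.442 (0.346 to 0.560) and 0.588 (0.489 to 0.703). Gpx2 was at 76.5 and 149 CPM in Gpha2 cells and at 47.2 and 87.8 CPM in keratin cells, so it was present on both sides of the split at levels above those of Krt12-dominant cells. Median depth was 4650 and 4803 UMIs in Gpha2 cells and 5615 and 5904 UMIs in keratin cells.

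**Figure D3:**
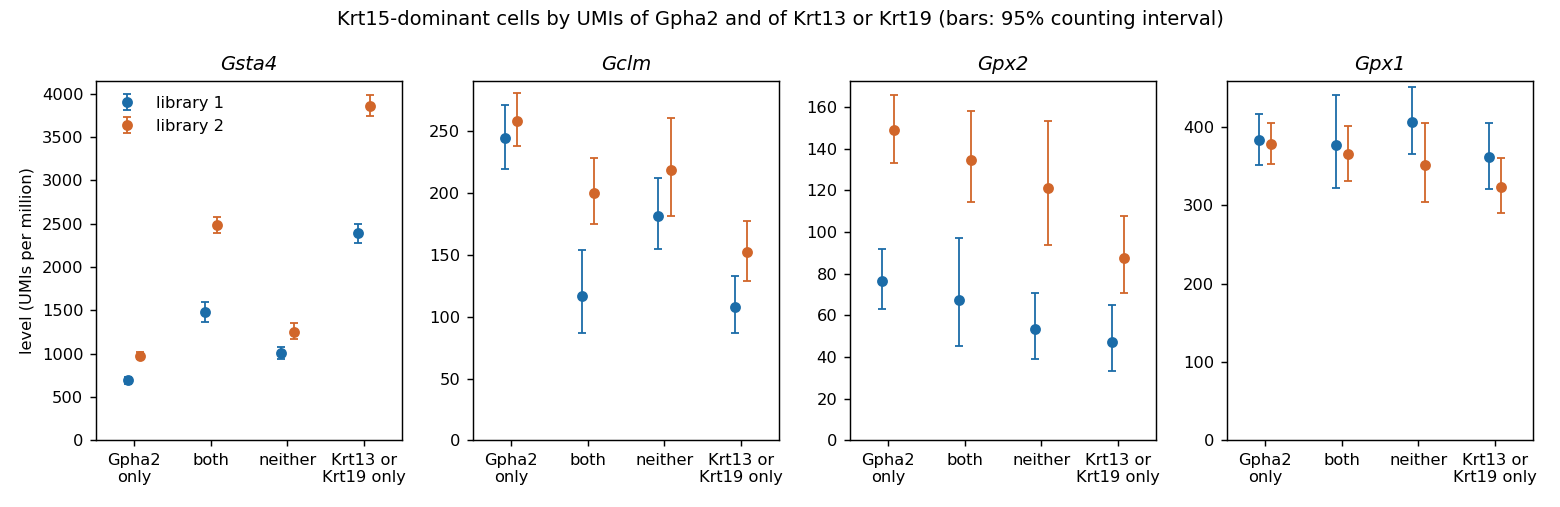
Levels of Gsta4, Gclm, Gpx2 and Gpx1 (y axis, UMIs per 1000000) in Krt15-dominant cells split by whether a UMI of Gpha2, of Krt13 or Krt19, of both or of neither was found at 2000 UMIs per cell (x axis), with a point per library and bars for the 95% counting interval. Gsta4 is lowest in cells with Gpha2 alone, at 692 and 978, and highest in cells with Krt13 or Krt19 alone, at 2389 and 3859.

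The variance of Gsta4 over its mean at 2000 UMIs was 3.29 to 7.51 in the end bins of the 2 libraries, with up to 46 UMIs in a cell. Each of the other 9 genes had a ratio between 0.976 and 1.34, but this ratio grows with the mean, which was far lower for most of them, so it ranks no gene by spread. Across cells with at least 2000 UMIs (2862 and 2664), the genes most like Gsta4 among 2726 compared were Calml3, Mal and Gsto1, with a mean Pearson r over the libraries of 0.50, 0.44 and 0.44. For Gpx2 they were Wfdc18 (0.33), Krt15 and Lgals7 (both 0.24). No gene reached a mean of 0.2 for any of the other 8. For Akr1b8 the mean hides a difference between the libraries: its r with Krt6a, a keratin of the Krt16 companion list below, was 0.302 in library 1 and 0.029 in library 2, where Akr1b8 had few UMIs. The 10 genes did not track each other from cell to cell. Over 45 pairs, r lay between -0.127 and 0.107, and 43 pairs were under 0.1 in size in both libraries. The most negative pair in library 1 was Gclm with Gsta4, at -0.127 and -0.123. All these correlations share library and depth, and most of the 10 genes had few UMIs a cell. Low counts can lower r, and their part in these values was not tested.

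Between libraries, Akr1b8 stood apart from the other 9. Over all kept cells it was at 60.2 CPM (1130 UMIs, 95% counting interval 56.7 to 63.8) in library 1 and at 8.15 CPM (145 UMIs, 6.88 to 9.59) in library 2. The ratio of library 1 to library 2 was 3.66 (2.41 to 5.69) in Krt15-dominant, 6.37 (2.68 to 18.4) in mixed and 7.92 (6.47 to 9.78) in Krt12-dominant cells. The gap was thus present in every bin. Krt16, to which Akr1b8 is related below, differed between the libraries too: in Krt12-dominant cells its level was 344 CPM in the first against 89.2 CPM in the second, and its part in the gap was not tested across the bins. For the other 9 genes the ratio by bin ran from 0.403 (Gpx2 in mixed cells) to 1.76 (Gpx2 in Krt12-dominant cells). Each library is 1 sample, so these ratios have no replicate check, and the intervals cover counting error only.

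Krt16 is a keratin of stressed, wounded and fast-dividing epithelium. Within Krt12-dominant cells thinned to 2000 UMIs, those with a Krt16 UMI (245 in library 1 and 70 in library 2) were compared with those without (1794 and 1552). Of the 10 genes, 2 rose (Akr1b8 and Gsta4), none fell and 8 did not pass the test, by edgeR on 4 sums with library as a block and 1 residual degree of freedom. Of 9429 genes tested, 1.51% were called higher and 0.753% lower, 2.26% in all. The median log2 fold change was 0.10 over the 10 genes and -0.03 over all genes. For the count of none lower, no gene of the 10 was lower at an unadjusted p under 0.05 either. DESeq2 called 0 in either direction, but gave an adjusted p for only 3 of the 10 (Gpx1, Gclm and Gsta4), so it says nothing about the other 7.

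Akr1b8 was at 46.0, 117 and 277 CPM in library 1 cells with 0, 1 to 4 and 5 or more Krt16 UMIs, from 165, 40 and 41 UMIs. In library 2 it was at 8.70 and 27.8 CPM with 0 and 1 to 4 Krt16 UMIs, from 27 and 3 UMIs, and had no UMI in the 16 cells with 5 or more. The step was clear in library 1, and the counts of library 2 were too few to show one. The joint difference between cells with and without Krt16 was 1.83 (SE 0.32, edgeR adjusted p = 3.19e-06), 1.83 in library 1 and 1.13 in library 2. With all counts of the same cells, the ratio was 2.96 (95% counting interval 2.59 to 3.39) in library 1 and 1.52 (0.596 to 3.26) in library 2. Cells without Krt16 kept the gap between the libraries, at 56.8 and 8.93 CPM on all counts, a ratio of 6.36 (5.13 to 7.97).

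Gsta4 was at 1343, 2003 and 2980 CPM in library 1 and at 1581, 1972 and 2938 CPM in library 2 across the same classes. Here the libraries moved together, each class standing above the one before it. The joint difference was 0.66, or 1.58-fold (SE 0.13, edgeR adjusted p = 8.11e-05), and missed the threshold in DESeq2 (adjusted p = 0.0782). DESeq2 gave no adjusted p for Akr1b8. Without the library block neither gene passed (edgeR adjusted p = 0.718 for Akr1b8 and 0.345 for Gsta4).

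**Figure D4:**
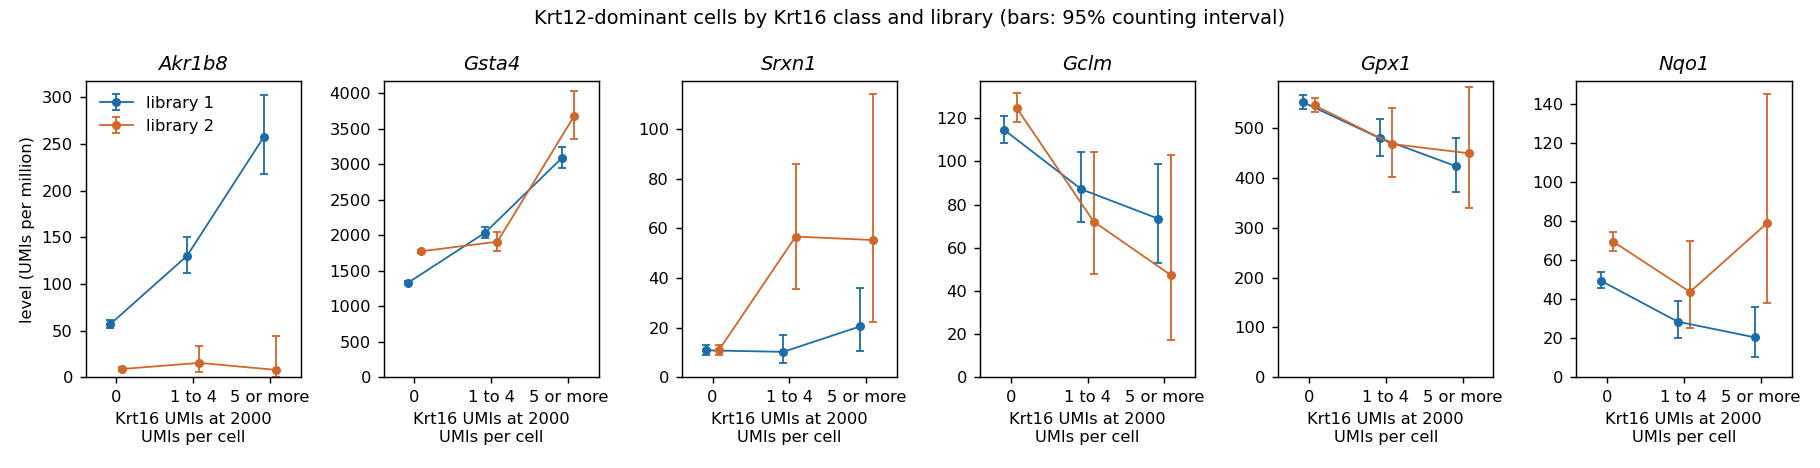
Levels of 6 of the 10 genes (y axis, UMIs per 1000000, all counts) in Krt12-dominant cells by their number of Krt16 UMIs at 2000 UMIs per cell (x axis), with a point per library and bars for the 95% counting interval. Gsta4 climbs in both libraries, Akr1b8 climbs in library 1, and the bars of the class with 5 or more are wide in library 2, where it held 16 cells.

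The other 8 genes gave differences between -0.52 (Nqo1, SE 0.36, edgeR adjusted p = 0.708) and 1.53 (Hmox1, SE 1.04, edgeR adjusted p = 0.688). Srxn1 differed between the libraries in sign, at -0.22 and 2.13, with a joint value of 1.03 (SE 0.63, edgeR adjusted p = 0.611). On all counts it was at 10.8 CPM without and 13.3 CPM with Krt16 in library 1. In library 2 it was at 10.8 and 56.3 CPM, the last from 29 UMIs. On these counts Gpx1 was lower with Krt16 in both libraries. Its ratios were 0.838 (counting interval 0.781 to 0.899) and 0.850 (0.744 to 0.967). Gclm was lower too, at 0.725 (0.612 to 0.854) and 0.530 (0.365 to 0.744). Txnrd1, Gclc and Nqo1 had intervals below 1 in library 1 only. Intervals lay above 1 for Gpx2 in library 1 only, and for Srxn1 and Hmox1 in library 2 only. These intervals cover counting error only, and neither Gpx1 nor Gclm passed the main test. When the high class was set at more than 25 Krt16 UMIs per 10000 on all counts, Srxn1 (1.83, edgeR adjusted p = 0.00258) and Gclm (-0.88, edgeR adjusted p = 0.0116) were called as well. In that setting 5.03% of all genes were called higher and 4.49% lower. Across the 2039 and 1622 cells, r with Krt16 was 0.247 and 0.095 for Gsta4 and 0.238 and 0.027 for Akr1b8, and under 0.09 in size for the other 8.

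Cells with Krt16 differed in other ways. A companion list held stress keratins, cornified envelope genes, S100a8, S100a9 and Il1rn. Of its 7 tested genes, 5 rose in edgeR (1.51% of all genes did), by 1.03 to 4.35 on the log2 scale, named after their values were seen: Krt6a, Krt17, S100a8, Sprr1a and Sprr1b. DESeq2 called 2 of the list higher. The summed level of the 5 limbal basal markers, which include the basal keratin Krt14, rose with the class too, from 5810 and 3920 CPM without Krt16 to 15329 and 9921 CPM with it. Little of this rise was Krt15, which the Krt12 share keeps low in this bin. Krt15 was at 194 and 217 CPM without Krt16 and at 278 and 257 CPM with it. The conjunctival markers summed to 91.4 and 126 CPM without Krt16 and to 239 and 121 CPM with it, and the corneal markers to 24054 and 29518 CPM against 18690 and 29607 CPM. Keratocyte markers were at 0 in every class, and the immune markers at 18.5 CPM or less. The 3 cycling markers were at 1906 and 2046 CPM without Krt16 and at 1171 and 1300 CPM with it. The immediate early list was at 9052 and 4062 CPM without Krt16 and at 7284 and 3179 CPM with it. Median depth before thinning was 5984 and 6556 UMIs without and 7711 and 7133 UMIs with Krt16. The part of these differences in the Akr1b8 and Gsta4 values was not tested. Of 66 further pathway genes tested, 2 rose and 2 fell, beside 1.51% and 0.753% of all genes, all below the size set for naming and named after their values were seen: Txn1 (0.62), Gsto1 (0.48), Aldh3a1 (-0.51) and Tkt (-0.58).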

How the data were processed

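The authors deposited 1 matrix of UMI counts for both libraries, made with Cell Ranger 3.1.0 on GRCm38 (mm10) per the submitters' processing notes, which also name Seurat 5.0.0. Any levelling of depth on joining the libraries is not given in the sources used here. The 10 genes, the lists, the bins and the tests were chosen with earlier results of these data known. Deposited counts were summed per library and bin and tested with edgeR 4.0.16 (quasi-likelihood, robust, TMM, filterByExpr, library as a block, Benjamini-Hochberg over all genes tested, threshold 0.05), with DESeq2 1.42.0 as an alternative. The Krt16 comparison was planned at 5 or more UMIs. Library 2 had 16 such cells, under the minimum of 20, so 1 or more was used, as the plan provided. Thinning to 2000 UMIs left out 325 and 337 kept cells. Doublets were kept, and an alternative left out the 3% of cells with the highest Scrublet score (96 and 90). A further 116 kept cells had too few keratin UMIs for a bin. All 10 genes are named. Pathway genes are named when called with the same sign in both libraries, a mean of at least 20 CPM and a log2 fold change of at least 1 in size, at most 5 per direction, and genes like a member from a mean r of 0.2. Simulated data had the same fixed spread for every gene and no difference between the libraries. On them, the bin fit recovered 82.9% of 193 genes changed by 1 on the log2 scale among 10867 genes, and the Krt16 fit 31.8% of 198 among 9173. The real libraries differed from each other, so these shares need not hold for the real fits.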

Additional observations from a re-analysis of the deposited data

How the results depend on the processing

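In the keratin comparison, 108 of the 119 alternative values with an adjusted p kept their direction and side of the threshold. The alternatives were other normalization, filters, bin limits, cell limits, doublet scores, thinning and a fit with no replicate block; the 20 values of each library alone have no adjusted p. Without the block, the number of genes called higher was 2 in place of 4, since Gclc (adjusted p = 0.0512) and Akr1b8 (0.581) missed the threshold. Gpx2 missed it with no filter (0.0889), with only the 4 sums compared (0.152), with Krt12 and Krt15 left out of the counts (0.05004), under 10% mitochondrial UMIs (0.0509) and with a keratin sum of at least 20 (0.0566). Among genes not called, the sign turned for Srxn1 on thinned cells (0.10) and for Gsta4 with a keratin sum of at least 20 (-0.067). Over the single libraries, Hmox1 ran from -0.63 to 0.072, Srxn1 from -0.36 to 0.16 and Gsta4 from -0.10 to 0.29. In the Krt16 comparison, 98 of 104 values with an adjusted p were kept. The number called higher was 0 in place of 2 with DESeq2, which gave an adjusted p for 3 of the 10 genes, and 0 with no replicate block (Akr1b8 adjusted p = 0.718, Gsta4 0.345), and the number called lower was 1 in place of 0 with more than 25 Krt16 UMIs per 10000. The sign turned with DESeq2 for Gpx2 (-0.31) and Txnrd1 (0.079), and with median-ratio size factors for Gclc (0.0095). Over the single libraries Srxn1 ran from -0.22 to 2.13, Txnrd1 from -0.72 to 0.81 and Gpx2 from -2.14 to 0.43. In each case the cause was not tested. Over all genes, the keratin comparison called 1740 higher and 1885 lower, against 769 and 1000 with DESeq2, 688 and 865 with no block and 1082 and 1119 on thinned cells. The Krt16 comparison called 142 and 71, against 22 and 9 with DESeq2 (1633 genes with an adjusted p), 3 and 0 with no block, 90 higher with 5 or more Krt16 UMIs, and 490 and 438 with more than 25 per 10000. A class of 10 or more Krt16 UMIs was not run, as it held 44 and 7 cells. Shares of cells with a UMI depend on depth: all 30 compared moved without thinning, and 22 of 30 at 1000 UMIs. The fits on 5 or more Krt16 UMIs and on all counts of the same Krt16 classes were added after seeing the data. Hmox1, Srxn1 and, in Krt12-dominant cells, Gpx2 rest on few UMIs, so small differences in them were not detectable at this depth. Even differences above their SE were not called in the Krt16 comparison. Srxn1 was at 1.03 (SE 0.63, edgeR adjusted p = 0.611) and Hmox1 at 1.53 (SE 1.04, edgeR adjusted p = 0.688).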

Other observations

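Within the Krt12-dominant cells with at least 2000 UMIs, some of the 10 genes differed between cells with more S-phase and cells with more G2/M UMIs. The cells were divided by which of 2 lists of 12 genes had more UMIs at 2000 UMIs per cell, a split chosen after the data were seen and given without a test. Gclm was at 85.5 and 91.5 CPM in the S cells of library 1 and library 2 and at 123 and 142 CPM in the G2/M cells, with ratios of 1.44 (95% counting interval 1.27 to 1.64) and 1.55 (1.36 to 1.77). Gclc, the other subunit of the same enzyme, was at 34.4 and 50.9 CPM in S cells and at 47.0 and 62.5 CPM in G2/M cells. Nqo1 was at 37.6 and 58.5 CPM against 50.6 and 75.4 CPM. In both libraries all 3 were higher in the G2/M cells, with intervals above a ratio of 1. The share of all genes with such intervals was not computed, so these values do not show whether the 10 genes stand out. Gsta4 went the other way, with ratios of G2/M to S cells of 0.912 (0.884 to 0.942) and 0.955 (0.924 to 0.987). These intervals cover counting error only, while the variance of Gsta4 over its mean in Krt12-dominant cells was 3.29 and 5.11. In the 157 and 155 cells with equal UMIs of both lists, which can include cells with none of either, Gsta4 was at 2163 and 3514 CPM. That was above its level in S cells (1520 and 1673 CPM) and in G2/M cells (1386 and 1597 CPM). Akr1b8 was lower in G2/M cells in library 1 (0.733, 0.639 to 0.843), and in library 2 its ratio of 1.37 had an interval that included 1 (0.857 to 2.28). Txnrd1 was at 30.8 and 23.2 CPM in S cells and at 24.2 and 18.6 CPM in G2/M cells, and the interval of library 2 (0.596 to 1.08) included 1. Gpx1 was at 556 and 543 CPM against 533 and 546 CPM. Median depth was 5812 and 6141 UMIs in S cells and 6270 and 6832 UMIs in G2/M cells.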
